A study of Mus musculus with 8 samples.

Results

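Carbonic anhydrases are zinc enzymes that convert carbon dioxide and water into bicarbonate and a proton, and back. Members of the family differ mainly in where they sit: in the cytosol, in the mitochondrial matrix, in the cell membrane with the catalytic domain outside, or, for *Car6* alone, in secreted fluid. Through this placing they take part in pH control, in bicarbonate supply to carboxylating enzymes and in carbon dioxide exchange across the vessel wall. A few relatives keep the fold and have lost catalysis.

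The carbonic anhydrases of the deposited gene table were taken as every row whose symbol is Car followed by a number and an optional a or b. There were 3 of them among 8278 genes: *Car6*, *Car12* and *Car5b*. In the authors' own test of *Hdac3* KO against EV every listed gene had an adjusted p below 0.05, so these genes were selected on the same difference that is described here. *Car6* was picked by name, with its change known, and the others came with the symbol rule. Their differences are therefore given as descriptions, with no test. The mm10 annotation (GENCODE M21) holds 16 carbonic anhydrase genes, and the other 13 are not in the table and were not analysed here. By placing, the table holds 0 of 5 cytosolic enzymes, 1 of 2 mitochondrial enzymes (*Car5b*), the 1 secreted enzyme (*Car6*), 1 of 5 membrane-anchored enzymes (*Car12*) and 0 of 3 non-catalytic relatives.

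Bulk RNA-Seq was compared between 4 libraries of *Hdac3* KO MCECs and 4 libraries of EV MCECs, both made from a purchased line of mouse cardiac endothelial cells. KO cells carried a lentiviral CRISPR-Cas9 vector with *Hdac3* sgRNA and EV cells the same kind of vector without it, so transduction is common to both groups. HDAC3 is a histone deacetylase that works within nuclear receptor corepressor complexes. Whether the KO cells were 1 clone or a pool is not given in the sources used here. The study's general statements take the sample numbers in its legends as biological replicates and also speak of technical replicates for in vitro work, and they do not say whether these libraries came from separate cultures. Part of the spread between libraries may therefore be technical.

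Library totals, recovered from count, gene length and FPKM, were 15775327 to 22255684 reads. *Hdac3* had 1943 to 2147 normalised counts in EV and 1465 to 1558 in KO libraries, without overlap, for reads over the whole gene. The paper checked the deletion by western blot and reports it as successful, and these RNA counts do not measure protein. Normalised counts are raw counts divided by the relative library size after TMM scaling. Marker lists were counted with edgeR's quasi-likelihood test and a Benjamini-Hochberg adjusted p under 0.01, by which 96.7% of the whole table was called, 47.1% higher and 49.6% lower in KO. Of 12 endothelial markers 6 were in the table, 1 higher (*Pecam1*, not called by DESeq2) and 5 lower in KO, with a median of -0.28 in log2 fold change. *Cd34* (-0.30) held most of their sums of 6408 to 6650 in EV and 5341 to 5515 in KO, while *Tek* (-1.41) and *Kdr* (-1.20) were lower by more. *Pecam1*, a defining endothelial gene, was near 0 in both groups, with 0 to 1 raw reads per EV library and 2 to 9 per KO library. Of 10 salivary and lacrimal secretory markers, the cells best known for *Car6*, only *Aqp5* was listed, at 137 to 159 in EV and 228 to 258 in KO. Of 7 epithelial markers 3 were listed and higher in KO, and their median was 1.20. *Krt19* (0.30) held nearly all of their sums of 8807 to 9265 and 11033 to 11407, while *Krt8* (1.20) and *Krt18* (1.59) were higher by more. Of 10 fibroblast and smooth muscle markers 6 were listed, 1 higher and 5 lower, and their median was -1.71 in log2 fold change. *Col1a1*, higher in KO (0.23), held most of their sums of 54065 to 58005 and 52919 to 55752, while *Pdgfrb* (-2.29), *Tagln* (-2.25), *Acta2* (-1.99), *Pdgfra* (-1.42) and *Dcn* (-1.21) were lower. Of 9 leukocyte and red cell markers 2 were listed and higher, 1 of them by DESeq2 (sums 128 to 137 and 283 to 320), and 0 of 7 cardiomyocyte markers were listed. A marker outside the table may be expressed without a difference, so its absence says nothing of its level. The part of these genes in the results below was not tested.

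The coding starts of the 3 genes are shown because the beginning of each protein directs it to its compartment. They were read from the GENCODE M21 transcripts, 5′ to 3′, and capitals mark start codons. *Car6* (ENSMUSG00000028972) lies on the minus strand of chromosome 4 from 150187015 to 150201332 and has 2 annotated coding transcripts. Car6-201 encodes 317 residues from a start codon whose first base is at 150201109. Car6-202 begins 2862 bases further along, inside the first intron of Car6-201, and encodes 261 residues from a start codon at 150198186. All 783 coding bases of Car6-202 are the end of the Car6-201 coding sequence, so the shorter form lacks the first 56 residues, the stretch that begins with the secretion signal. A form of *Car6* that is not secreted and depends on the stress factor CHOP has been described. The first 210 coding bases of Car6-201 carry both start codons, the later one at coding position 169:
Car6-201: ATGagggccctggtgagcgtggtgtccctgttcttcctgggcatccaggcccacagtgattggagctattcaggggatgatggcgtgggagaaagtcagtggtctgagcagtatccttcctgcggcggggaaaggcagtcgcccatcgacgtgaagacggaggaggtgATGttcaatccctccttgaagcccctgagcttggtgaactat

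*Car12* (ENSMUSG00000032373, plus strand of chromosome 9, 66713686 to 66766845) encodes a membrane-spanning enzyme of 354 residues in its longest transcript. *Car5b* (ENSMUSG00000031373, minus strand of chromosome X, 163976822 to 164027997) encodes an enzyme of 317 residues that is imported into mitochondria. Their first 60 coding bases were:
Car12-201: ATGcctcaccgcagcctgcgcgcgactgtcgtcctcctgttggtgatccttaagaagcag
Car5b-201: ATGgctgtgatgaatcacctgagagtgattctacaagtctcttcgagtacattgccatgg

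Aligned end to end, the proteins of Car6-201 and Car12-201 were identical at 37.8% of 304 aligned residues. The identity was 33.1% between Car5b-201 and Car12-201 and 29.9% between Car6-201 and Car5b-201. At this distance the coding sequences are not near-identical copies. No exon of another annotated gene overlapped the exons of *Car6*, *Car12* or *Car5b* on either strand (0% of exonic bases).

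**Figure D1:**
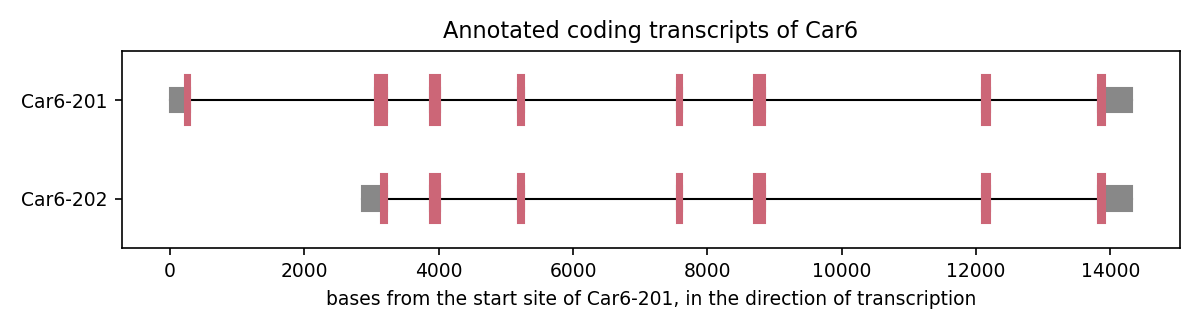
Annotated exons of the 2 coding transcripts of *Car6*, with bases from the start site of Car6-201 on the horizontal axis in the direction of transcription. Coding parts are red and tall, the other exon parts are grey and low, and lines are introns. Car6-202 begins 2862 bases after Car6-201 and shares its last 783 coding bases.

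*Car6* had the largest difference of the 3 genes. Before scaling, the EV libraries (replicates 1 to 4) held 54, 78, 59 and 99 reads and the KO libraries 642, 677, 620 and 683. After scaling, normalised counts were 64.1, 86.6, 61.6 and 87.8 in EV against 675, 619, 584 and 640 in KO. Every KO library was above every EV library, and the lowest KO value was far above the highest EV value. The log2 fold change from edgeR was 3.05 (standard error 0.09), or 8.30-fold on the linear scale. Within EV the libraries fell into a lower pair (replicates 1 and 3) and a higher pair (replicates 2 and 4), with a coefficient of variation of 18.8% where counting alone gives 11.7%. In KO it was 6.10% against 3.91% from counting. The counts add all transcripts of the gene, so Car6-201 and Car6-202 cannot be told apart in them. In a bulk sample, more cells with the transcript and more transcript per cell cannot be told apart either.

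*Car12*, whose enzyme faces the outside of the cell and whose gene is known as hypoxia-inducible, was also higher in KO. In replicate order the EV libraries had 62.9, 58.9, 55.4 and 60.3 normalised counts, and the KO libraries had 108, 116, 122 and 123. The groups did not overlap. Its log2 fold change was 0.99 (standard error 0.12), or 1.98-fold. The spread between libraries, 5.29% in EV and 5.76% in KO, was below the 13.3% and 9.03% that counting alone gives.

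*Car5b*, the mitochondrial enzyme that supplies bicarbonate inside the matrix, was lower in KO. The EV libraries had 140.04, 154, 158 and 164 normalised counts in replicate order, and the KO libraries had 99.95, 101.5, 112 and 108. Again no KO library reached the lowest EV library. Its log2 fold change was -0.55 (standard error 0.10), which makes EV 1.47-fold higher than KO.

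**Figure D2:**
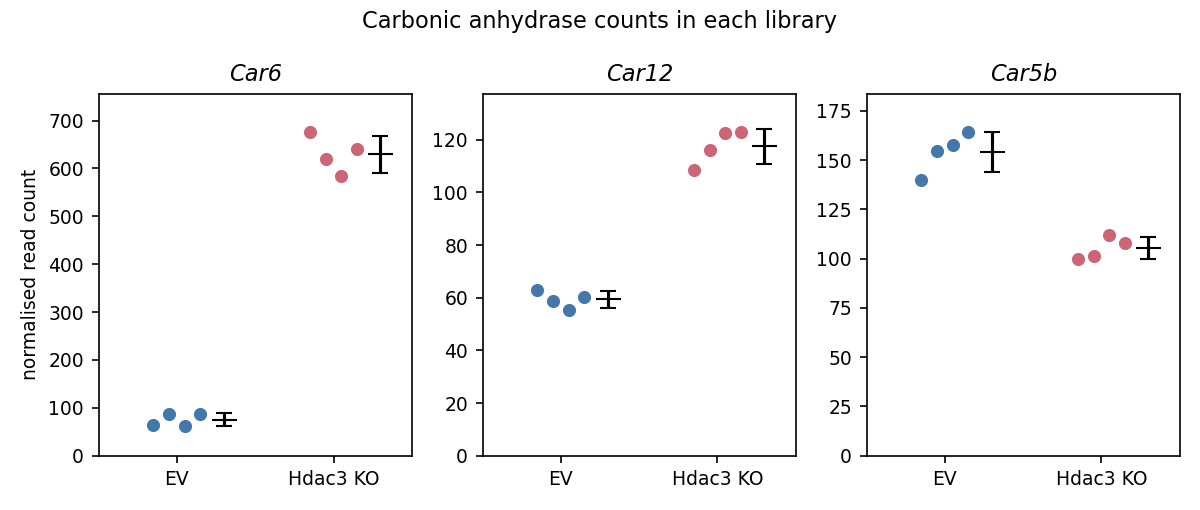
Normalised read counts of *Car6*, *Car12* and *Car5b* in each library of EV (blue) and *Hdac3* KO (red) MCECs, 4 libraries a group, with bars for mean and SD. The vertical axes start at 0 and differ between panels. *Car6* went from a mean of 75.0 to 630, *Car12* from 59.4 to 117 and *Car5b* from 154 to 105.

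These differences were read against the whole table. Beside the 96.7% of listed genes with an adjusted p under 0.01, 91.1% had groups without overlap. All 3 carbonic anhydrases met both descriptions, from which nothing can be read, since the table was selected on this contrast. The same holds for the calls of every other listed gene named here. The split of calls depended on scaling, with 3895 genes higher and 4107 lower after TMM and 2671 and 4120 on library totals alone. The size of the differences varied more. Over the table, the absolute log2 fold change had a median of 0.40. *Car6* ranked 27 from the highest, and only 4 of the genes above it had a mean of 20 or more normalised counts in KO. A difference as large as that of *Car6*, in either direction, was held by 0.676% of the table (56 genes, *Car6* included). For *Car12* that share was 13.1% and for *Car5b* 33.6%. *Car6* was picked with its change known, so its rank and share are descriptions only.

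**Figure D3:**
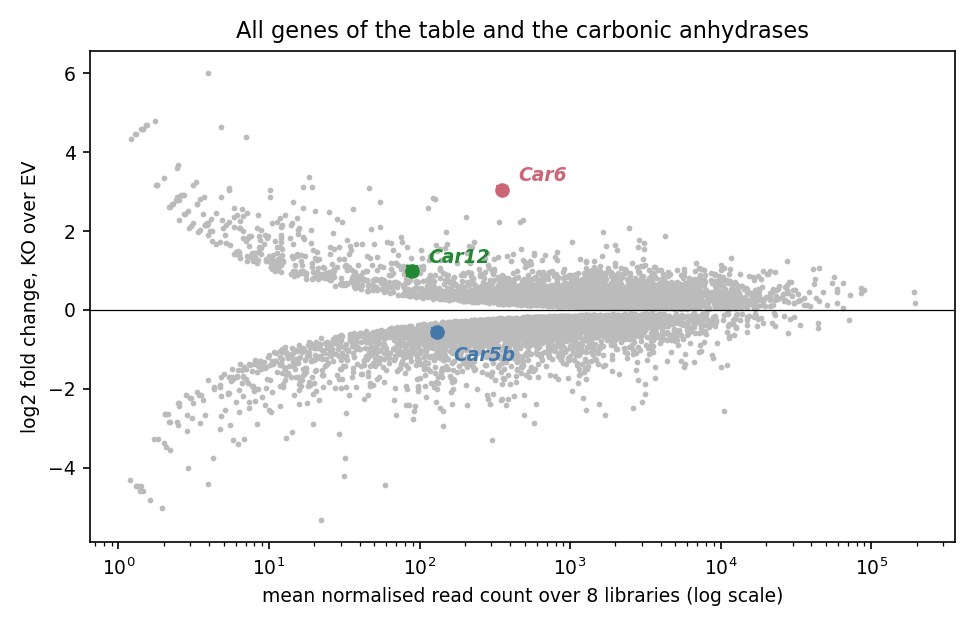
Log2 fold change of *Hdac3* KO over EV against the mean normalised read count over 8 libraries, on a log axis, for all 8278 genes of the table (grey) and the carbonic anhydrases (coloured, with standard error bars that mostly lie within the points). The gap around 0 reflects that the table lists only genes with a difference. *Car6* at 3.05 stands above the other genes of its read count range.

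Levels between genes were compared per length, with the FPKM values of the authors. In EV libraries *Car6* had 2.18, 2.93, 2.10 and 2.97 FPKM in replicates 1 to 4 and *Car5b* 2.18, 2.38, 2.45 and 2.53, so the ranges of these genes overlapped. *Car12* was below both at 0.795 to 0.904 FPKM. In KO libraries *Car6* had 21.2, 19.4, 18.3 and 19.98 FPKM. *Car12* at 1.43 to 1.62 and *Car5b* at 1.428 to 1.599 now overlapped. The order in EV was thus *Car6* and *Car5b* without separation, then *Car12*, and in KO *Car6*, then *Car12* and *Car5b* without separation. The EV order depends on the gene length, for which the authors' value equals the longest annotated transcript of these genes. With the length of all annotated exons, *Car6* at 1.81 to 2.56 FPKM was above *Car5b* at 1.18 to 1.37 in EV. In KO the ranges of *Car12* (0.700 to 0.791) and *Car5b* (0.772 to 0.865) overlapped with that length too.

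The summed FPKM of the 3 genes was 5.78 ± 0.56 (SD, n = 4) in EV and 22.8 ± 1.1 (SD, n = 4) in KO. *Car6* made up 39.3% to 47.6% of that sum in EV libraries and 85.0% to 88.1% in KO libraries. The share of *Car5b* went from 38.7% to 45.8% in EV down to 5.95% to 7.44% in KO. The ratio of *Car6* to *Car5b* in a library was 0.857 to 1.23 in EV and 11.4 to 14.8 in KO, and that of *Car12* to *Car5b* was 0.325 to 0.415 and 1.003 to 1.058. These ratios are within a library and do not depend on scaling between libraries, but they do on gene length. With the length of all annotated exons, *Car6* made up 51.4% to 59.8% of the sum in EV and 90.5% to 92.5% in KO, and the ratio of *Car12* to *Car5b* in KO libraries was 0.907 to 0.957, below 1 in place of just above it. The level of *Car6* relative to other genes also moved, from above 16.5% of the listed genes by mean FPKM in EV to above 63.6% in KO. *Car12* moved from 8.24% to 14.9% and *Car5b* from 15.8% to 14.6%. Of these levels only that of *Car6* in KO was above the middle of the listed genes.

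**Figure D4:**
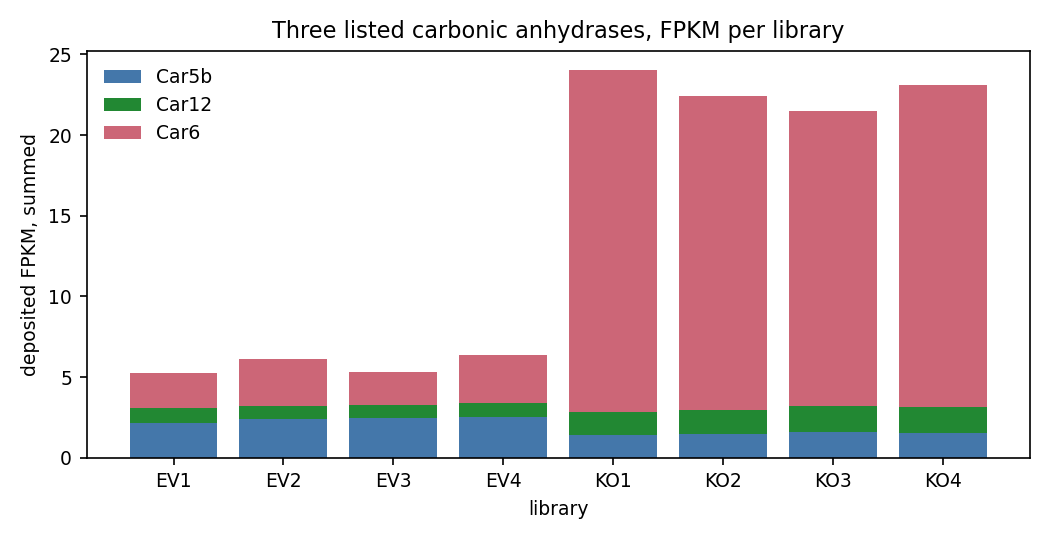
Deposited FPKM of *Car5b* (blue), *Car12* (green) and *Car6* (red), stacked for each of the 4 EV and 4 *Hdac3* KO libraries, axis from 0. The sum was 5.27 to 6.36 in EV and 21.5 to 24.0 in KO, with *Car6* at 85.0% or more of it in every KO library.

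Other genes of acid-base handling were counted in lists, with edgeR's test and an adjusted p under 0.01. Of 20 genes of the SLC4 and SLC26 families, which hold the bicarbonate transporters, 9 were in the table, 2 higher and 6 lower in KO, beside 47.1% and 49.6% of the table. Not all of them carry bicarbonate: *Slc26a2* and *Slc26a11* are known as sulfate transporters, and *Slc4a11* is not an established bicarbonate carrier. The listed transporters had a median of -0.30 in log2 fold change, and all listed genes one of 0.06. *Slc4a4*, the electrogenic sodium-bicarbonate cotransporter, fell from 2654 ± 187 to 1124 ± 79 normalised counts (mean ± SD, n = 4), which is -1.24 on the log2 scale. *Slc4a3*, a chloride-bicarbonate exchanger, fell from 328 to 231. *Slc4a11* rose from 37.9 to 64.5. The higher genes were *Slc4a11* and *Slc26a9*, and *Slc26a9* had only 0 to 3 raw reads per EV library and 2 to 9 per KO library. *Slc4a7*, another sodium-bicarbonate cotransporter, had 508 and 558 normalised counts and did not pass (adjusted p = 2.3e-02 from edgeR's test).

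Of 20 proton and lactate transporters and their partner proteins 10 were in the table. Of these 3 were higher and 7 lower in KO, beside 47.1% and 49.6% of the table, and their median was -0.23. *Slc9a2*, a sodium-proton exchanger, rose from 19.8 to 62.9 normalised counts and *Slc16a1*, a lactate and proton carrier, from 6205 to 7691. *Hvcn1*, a voltage-gated proton channel, fell from 189 to 119 and the exchanger *Slc9a5* from 169 to 116. Of 10 enzymes that use or sense bicarbonate 6 were in the table. Beside the same shares of the table, 2 were higher and 4 lower, with a median of -0.37. *Cad*, which starts pyrimidine synthesis, rose from 3252 to 4932, and *Acaca*, which makes malonyl-CoA in the cytosol, from 2215 to 3092. The mitochondrial carboxylase subunit *Pcca* fell from 424 to 305 and *Acacb* from 137 to 88.4.

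Stress and hypoxia genes were counted in the same way because *Car6* and *Car12* are known from these settings. All 21 CHOP and ATF4 stress genes of the list were in the table. In KO 19 were higher and 2 lower, beside 47.1% and 49.6% of the table, and their median was 1.01 in log2 fold change. This direction of ATF4 targets was known when the list was written. *Ddit3*, which encodes CHOP, had 884, 810, 855 and 890 normalised counts in the EV libraries and 1988, 2002, 2118 and 1989 in the KO libraries, in replicate order. It rose by 1.23 on the log2 scale with a standard error of 0.04. *Atf4* rose from 5171 to 10358. The highest of the list were *Cth*, a transsulfuration enzyme (log2 fold change 2.35), and *Ero1l*, an oxidase of the endoplasmic reticulum (2.09). The lower ones were the kinases *Eif2ak4* (-0.36) and *Eif2ak3* (-0.21). No gene of that list reached the 3.05 of *Car6*.

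Of 16 genes of the hypoxia response, its regulators included, 10 were in the table. Beside 47.1% and 49.6% of the table, 3 were higher and 6 lower in KO, with a median of -0.22. *Vegfa* (1.19) and *Pgk1* (0.74) rose, while *Epas1* (-0.96), *Pdk1* (-0.39) and *Hif1a* (-0.21) fell. *Car12* at 0.99 lay between *Vegfa* and *Pgk1*.

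**Figure D5:**
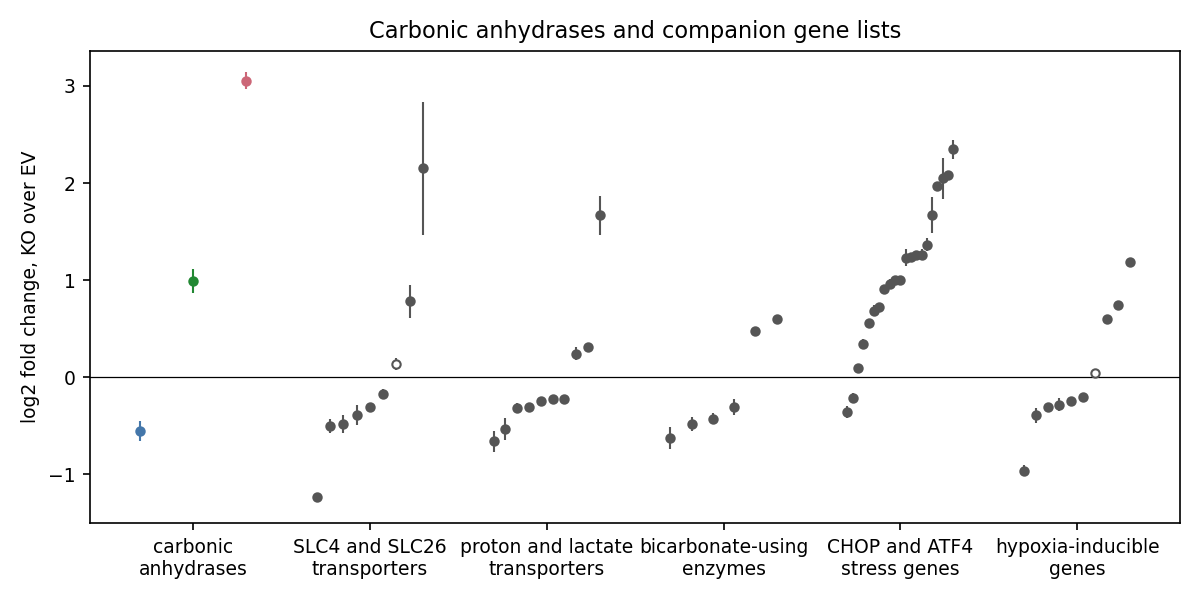
Log2 fold change of *Hdac3* KO over EV, with standard errors, for the carbonic anhydrases and for the members of the 5 companion lists that are in the table, sorted within a list. Filled points had an adjusted p under 0.01 in edgeR's test and open points did not. The wide bar at 2.15 is *Slc26a9*, with at most 9 raw reads in a library.

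Listed genes near *Car6* on chromosome 4 differed in both directions and by less. Within 200 kb on each side the annotation holds 6 other protein-coding genes, and 3 of them are in the table. *Eno1*, a glycolytic enzyme whose gene lies 35.4 kb away, rose from 22255 to 36093 normalised counts, or 0.70 on the log2 scale. *Rere*, a transcriptional corepressor 80.3 kb away, fell from 9922 to 5632 (-0.82). *H6pd*, an enzyme of the endoplasmic reticulum 178 kb away, fell from 1311 to 835 (-0.65). *Slc2a7*, the protein-coding gene closest to *Car6*, is not in the table.

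The genes whose pattern was most like that of *Car6* were found by Euclidean distance over the 8 libraries, in log2(normalised count + 1) centred on each gene's mean, among 7955 genes with a mean of 20 or more in the higher group. The median distance was 4.30. *Lincenc1*, a non-coding RNA, was nearest at 0.74 and had 31.2 ± 3.2 normalised counts in EV and 221 ± 13 in KO (SD, n = 4). *Cdsn*, an adhesion protein of the epidermis, followed at 0.98, with 30.3 ± 8.7 and 215 ± 23. *Stmn4* (1.04), *Dthd1* (1.19) and the chemokine gene *Ccl20* (1.23) came next, each with 10 or fewer raw reads in every EV library. These 3 passed the filter only through their KO means. As *Car6* was picked with its change known, nearness here largely restates a similar difference between EV and KO. With a pseudocount of 10 in place of 1, *Lincenc1* and *Cdsn* remained the nearest 2 and the other 3 ranked between 19 and 26.

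Promoter windows from 250 bases before to 50 after each start were taken from RefSeq (GRCm38.p6) and matched all 3 genes by symbol. Letters were searched on both strands for factors tied to these settings, and the share of all 32851 windows with a match is given beside each. The C/EBP-ATF response element TGATGNAA (3.97% of windows), the nuclear receptor motif AGGTCA (16.3%) and the cAMP response element TGACGTCA (1.79%) were in none of the 3 windows. The letters ACGTG of the hypoxia response core (19.6% of windows) were in that of *Car6* only, on both strands with 4 letters in common. These overlapping matches form CACGTG, which reads the same on both strands, and other spellings of the core were not searched. The CCAAT box (37.4%) was in those of *Car6* and *Car5b*. The *Car6* match begins 148 bases before the RefSeq start on the strand of the gene, which is 49 bases inside the first exon of Car6-201, and is shown because it was the only one of the stress and hypoxia letters found, in capitals, at chr4:150201267-150201296 on the minus strand:
Car6 window: gaggaggtgaggcACGTGcacaggcaccaa

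The RefSeq start of *Car6* lies inside the first exon of Car6-201, so the window holds only 53 bases before the start of Car6-201 and does not reach that of Car6-202. Letters further upstream of either start were not searched. The windows of *Car6*, *Car12* and *Car5b* held 4, 9 and 12 CG dinucleotides, where the median window held 7. A match is a description of letters and not of binding, and windows without one say nothing of the factor.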

How the data were processed

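The deposited table was used, in which the authors gave raw read counts per gene and FPKM values (per kilobase of gene length and per sequencing depth of the library) from reads aligned to mm10 with tophat2 and bowtie2. The program that counted reads is not given in the sources used here, nor whether it used strand. The p-values and adjusted p-values of the authors were used only to check that no listed gene has an adjusted p of 0.05 or more. For differential expression the sources used here name DESeq 1.6.3, DESeq2 and the cufflinks suite. The authors' log2 fold changes and group means were not used, and the separate tables of higher and lower genes hold the same rows.

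Library sizes were the recovered totals multiplied by TMM factors. Counts were fitted with edgeR 4.0.16 in R 4.3.3 across all 8278 genes without a low-count filter, and standard errors are the absolute log2 fold change divided by the square root of F. The cut-off of 0.01 follows the study's methods. The fit was tested on simulated data. Named genes are all carbonic anhydrases, *Hdac3*, the 2 highest and 2 lowest called genes of each companion list with a mean of 20 or more, *Ddit3*, *Atf4*, *Hif1a*, *Slc4a7*, listed genes within 200 kb of *Car6* and the 5 nearest in pattern. *Slc26a2*, *Slc26a9*, *Slc26a11* and the marker genes were named after their values were seen. The genes and lists were chosen with earlier results of these data known. Motif letters were chosen after the counts were seen. Alternatives were DESeq2 1.42.0, its size factors, totals without TMM, a replicate block, a filter at 10 counts in 4 libraries, FPKM scales and leaving out each library. The length of all annotated exons was added after seeing the data. Reads carry no molecular identifiers, so counting error covers reads only. Figures were drawn with matplotlib 3.10.9.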

Additional observations from a re-analysis of the deposited data

Results flagged for a closer look

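Normalised counts of 35 named genes were searched in each group of 4 libraries for a library far from the others, 70 groups in all, where chance gives about 1 in 20. No carbonic anhydrase had one. In *Ddit3*, KO replicate 3 had 2118 against 1988 to 2002 in the other KO libraries (gap divided by range 0.891). In *Hif1a*, EV replicate 1 had 4155 against 3728 to 3776 (0.887). In *Pcca*, EV replicate 1 had 389 against 431 to 439 (0.843).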

How the results depend on the processing

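Of 45 values of the 3 carbonic anhydrases under alternatives, 39 moved by less than the spread between libraries and none changed sign. Library totals without TMM lowered the median of all genes by 0.12 (a shift of -0.12), and *Car12* to 0.87 and *Car5b* to -0.67, about that shift. On the log2(FPKM + 1) scale, which shrinks low values, *Car6* was 2.55, *Car12* 0.46 and *Car5b* -0.43, and with 0.1 added *Car12* was 0.80. Leaving out each library gave 2.97 to 3.15 for *Car6*, 0.95 to 1.03 for *Car12* and -0.59 to -0.52 for *Car5b*. With the replicate number as a block they were 3.06, 0.99 and -0.55. Nothing in the sources pairs the libraries, and same-numbered libraries correlated at -0.09 to 0.10 across 7533 genes (genes are not independent replicates). The replicate block changed no call of a gene named by rule. Genes named after their values were seen were not checked in this way. DESeq2 called 1 of the 2 higher genes of the SLC4 and SLC26 families, losing *Slc26a9*, and also lost *Pecam1* and *Hba-a1* among the markers. Without EV replicate 2, *Slc4a7* passed at 0.17. With a pseudocount of 10, 2 of the 5 genes nearest to *Car6* were kept. With the length of all annotated exons, mean FPKM was 2.197 in EV and 17.0 in KO for *Car6*, 0.416 and 0.758 for *Car12*, and 1.29 and 0.813 for *Car5b*, which parts *Car6* from *Car5b* in EV, while *Car12* and *Car5b* overlapped in KO with either length. Every level of the 3 genes other than *Car6* in KO rests on 53 to 185 raw reads in a library.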
